A study of Bubalus bubalis with 6 samples.

Results

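Phosphoinositides are phosphorylated forms of the membrane lipid phosphatidylinositol. Kinases add phosphates to the inositol ring, phosphatases take them off, and phospholipase C cuts the lipid into diacylglycerol and a soluble inositol phosphate that opens calcium channels. In blood cells these enzymes act below antigen, adhesion and chemokine receptors, and they also mark endosomes and autophagosomes. CircRNAs are closed RNA circles formed when a splice donor is joined back to an upstream acceptor, and the gene that holds the circle is called its host gene. The host genes described here are those whose symbol starts with PIK3, PI4K, PIP4K, PIP5K, PIKFYVE, INPP, MTMR, PLCB, PLCG, PLCL or SYNJ, which picks enzymes and subunits of this pathway by name and uses no measured value. The prefixes found 51 of 8611 host genes, with 511 of 57308 circRNAs and 44438 reads. Of 61 genes listed for these families, 10 had no circRNA listed under their symbol, namely INPP1, INPP5E, INPP5J, MTMR4, MTMR7, PIK3C2G, PIK3IP1, PIK3R2, PIK3R3 and PIP5KL1. The table places 40 of the 51 host genes in the KEGG phosphatidylinositol signalling system.

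Jugular blood of Jianghuai buffaloes (Bubalus bubalis), aged 3 to 5 years, was drawn on day 25 after insemination from 3 pregnant animals (P-Buffalo) and at the same time from 3 non-pregnant controls (C-Buffalo). Oestrus had been synchronised with prostaglandin injections in both groups, but the controls received no semen, which means that an effect of pregnancy and one of insemination cannot be told apart. The study's methods describe the removal of ribosomal and linear RNA before 1 library was made per animal, whereas the sample labels name a SMARTER kit for mRNA, and which of these was used is not known here. Whole blood holds many cell types, so fewer cells of a type and less RNA per cell cannot be told apart in any value below.

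Over all circRNAs the libraries held 815851 to 1298753 reads. At this depth a circRNA listed at 0 could still lie at 2.31 to 3.68 CPM (reads scaled to library size), before TMM factors and for counting error only. Non-pregnant replicate 2 stood apart. It held 12336 circRNAs against up to 26802 elsewhere, and its TMM factor, the scaling that edgeR fits for composition, was 0.467 over circRNAs against 1.09 to 1.25 in the other 5 libraries. After that factor the limit for a circRNA at 0 in this library lies above the range just given. For the tested features on which it bears most, the value without it is given as well. Among blood markers, 8 of 12 erythroid genes had circRNAs, with HBB and HBA among those at 0. The erythroid sum was 1784 to 3800 CPM in non-pregnant and 2385 to 4066 CPM in pregnant libraries. EPB41 gave 11257 of its 19063 reads, with a log2 fold change of 0.10 (SE 0.45). Of 7 erythroid genes tested, 6 lay above 0 and 1 below. RHAG was at 3.06 (SE 1.24, unadjusted p = 0.0234 and adjusted p = 0.844 by edgeR), with groups that overlapped. Platelet markers, 7 of 9 with circRNAs and GP1BA and PF4 at 0, summed to 865 to 1073 CPM in non-pregnant and 273 to 658 CPM in pregnant libraries, so that the groups did not overlap. Most of this sum was CLEC1B, with 2693 of 4216 reads and a log2 fold change of -1.19 (SE 0.52). Its groups did not overlap, as for 11.5% of all host genes tested. They overlapped for PPBP at -0.67 (SE 0.72), GP6 at -0.78 (SE 1.03) and MMRN1 at -2.67 (SE 1.58). Neutrophil markers, 5 of 8, reached 78.7 to 186 and 39.7 to 91.9 CPM, and T cell markers, 5 of 10, reached 2176 to 4376 and 1552 to 2630 CPM. The T cell sum was nearly all BCL11B, with 14574 of 15128 reads and a log2 fold change of -0.51 (SE 0.44), while CD3G was at 0.96 (SE 0.97) and IL7R at 0.74 (SE 1.21). B cell markers, 6 of 8, reached 254 to 586 and 257 to 517 CPM. CD3D, CD8A, CD79A and CD79B were at 0, as were all 7 NK and cytotoxic markers, and monocyte markers, 1 of 6, stayed at or below 8.47 CPM. The part of these cell types in the results below was not tested.

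The phosphoinositide host genes held 0.761%, 0.480% and 0.846% of all reads in non-pregnant replicates 1, 2 and 3, and 0.640%, 0.825% and 0.672% in pregnant replicates 1, 2 and 3. The 95% Wilson intervals of the lowest and the highest of these shares were 0.467% to 0.495% and 0.829% to 0.863%, for counting error only. The low share belongs to non-pregnant replicate 2, and the other non-pregnant libraries lie within or close to the pregnant range. After TMM scaling the summed level was 7901, 7187 and 7678 CPM in the non-pregnant and 5984, 8141 and 6128 CPM in the pregnant libraries, and the groups overlapped.

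The reads were unevenly spread over the 3 kinds of enzyme. The 23 kinases, kinase subunits and adaptors gave 236 circRNAs and 24.8% of the reads. The 20 genes of phosphatase families, active or not, gave 199 circRNAs and 36.1%, and the 8 phospholipase C genes 76 circRNAs and 39.1%. Reads over back-splice junctions are not scaled by length here, so these are shares of reads. In non-pregnant and pregnant blood the kinases summed to 1812 ± 301 and 1809 ± 89.97 CPM, the phosphatases to 3005 ± 510 and 2311 ± 532 CPM, and phospholipase C to 2771 ± 1169 and 2630 ± 626 CPM (SD, n = 3 each). The difference was below either SD for the phospholipase C genes and the kinases, but not for the phosphatases. These summed to 2671, 3593 and 2752 CPM in the non-pregnant and 1870, 2902 and 2161 CPM in the pregnant libraries, and the groups overlapped. Non-pregnant replicate 2 differed in composition, with 19.97% of its phosphoinositide reads in phospholipase C against 36.8% to 45.6% in the other 5 libraries, and 49.99% in phosphatases against 31.2% to 35.8%.

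The host genes gave a median of 6 circRNAs each against 3 over all host genes, and 4 of 51 (7.84%) gave a lone circRNA against 27.3% of all. PIK3C3, the class III kinase that makes phosphatidylinositol 3-phosphate for autophagy, gave the most, with 33 circRNAs of which 24 were read in 1 library. Of the 511, 440 were exonic and 71 (13.9%) intronic, against 14.3% intronic over all circRNAs with a host gene. Exonic circles held a median of 3 exons and at most 12, 23 of them (5.23%) held 1 exon against 6.82% over all, and 52.5% held 2 or 3 exons against 54.1%. Their median genomic span was 5638 bp against 5419 bp, and the introns beside them had medians of 4088 bp on the left and 4616 bp on the right, against 4341 and 4324 bp.

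Most of these circRNAs were rare. Of the 511, 274 (53.6%) were read in 1 library, against 56.3% over all circRNAs with a host gene, and these held 4.18% of the reads. The 34 (6.65%) that were read in all 6 libraries held 67.3% of the reads, against 8.12% and 77.8% over all. By group, 130 were read only in non-pregnant, 183 only in pregnant and 198 in both groups. These were 25.4%, 35.8% and 38.7%, against 25.6%, 37.8% and 36.6% over all circRNAs with a host gene. Of those with over 3 reads, 136 were read only in pregnant libraries, 114 of them in 1 library, 20 in 2 and 2 in all 3. In the non-pregnant group 74 were, 59 of them in 1 library, 14 in 2 and 1 in all 3. These counts move with detection, which was lowest in non-pregnant replicate 2 with 129 of the 511 circRNAs and highest in pregnant replicate 2 with 251. For circRNAs with over 3 reads the shares over the whole table were not taken. Whether the counts at that limit differ from those of other host genes is therefore not known here, and they show no trait of these genes.

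Phospholipase C was led by PLCG2, the gamma enzyme that acts below the B cell receptor and platelet collagen receptors. It was read 3183, 625 and 3861 times in non-pregnant replicates 1, 2 and 3 and 2379, 4092 and 1879 times in pregnant replicates 1, 2 and 3. This was 36.0% of all phosphoinositide reads and put PLCG2 at rank 37 of all host genes by reads. Its mean levels were 2481 ± 1289 CPM without and 2451 ± 569 CPM with pregnancy (SD, n = 3 each), a log2 fold change of -0.02 (SE 0.48) that was -0.38 without non-pregnant replicate 2, and its direction turned with the library sizes used or with the library left out. PLCG2 gave 27 circRNAs, yet circRNA7384 alone, 3 exons on NC_037562.1 from 8039871 to 8042800 on the plus strand, held 84.7% of the reads. Of its circles 6 begin at that same start and hold 97.1% of its reads, while 4 end at 8042800. The counts of circRNA7384 were 2918, 482 and 3298 in the non-pregnant and 1857, 3552 and 1465 in the pregnant libraries. The low count of non-pregnant replicate 2 recurs here, and the remaining 5 libraries overlap between groups. The log2 fold change was -0.19, and -0.50 without that library.

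The other phospholipase C genes were read far less. PLCB1, an enzyme driven by G protein-coupled receptors, was read 111, 256 and 140 times in the non-pregnant and 87, 186 and 18 times in the pregnant libraries, a log2 fold change of -1.41 (SE 0.83) that was -0.50 without non-pregnant replicate 2. Its circRNA18967 was read 0, 130 and 8 times in the non-pregnant and 0, 3 and 0 times in the pregnant libraries, so nearly all of its reads came from 1 animal. PLCG1, the gamma enzyme of T cell receptor signalling, had few reads, with 0, 1 and 9 in the non-pregnant and 17, 21 and 10 in the pregnant libraries. It was the only phosphoinositide host gene tested whose groups did not overlap in CPM, with a log2 fold change of 2.17 (SE 1.57, unadjusted p = 0.182 and adjusted p = 0.946 by edgeR). PLCG1 passed the filter on low counts only through the pregnant libraries, so the gap between its groups is no independent support. Groups failed to overlap for 11.5% of all host genes tested, 7.06% with pregnant higher and 4.47% with pregnant lower. From PLCL2, a phospholipase C-like protein without catalytic activity, circRNA4882 was read 3, 0 and 7 times in the non-pregnant and 18, 29 and 34 times in the pregnant libraries. This circle also passed the filter only through the pregnant libraries. Every pregnant library was above every non-pregnant one, and the log2 fold change was 2.95 (SE 1.31, unadjusted p = 0.0511 by edgeR), and 2.47 without non-pregnant replicate 2 (unadjusted p = 0.0805 by edgeR). Another PLCG2 circle, circRNA17620, was read 0, 1 and 19 times against 51, 9 and 39 times, with groups that overlapped and a log2 fold change of 2.35 (SE 1.48) that was 1.98 without that library.

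**Figure D1:**
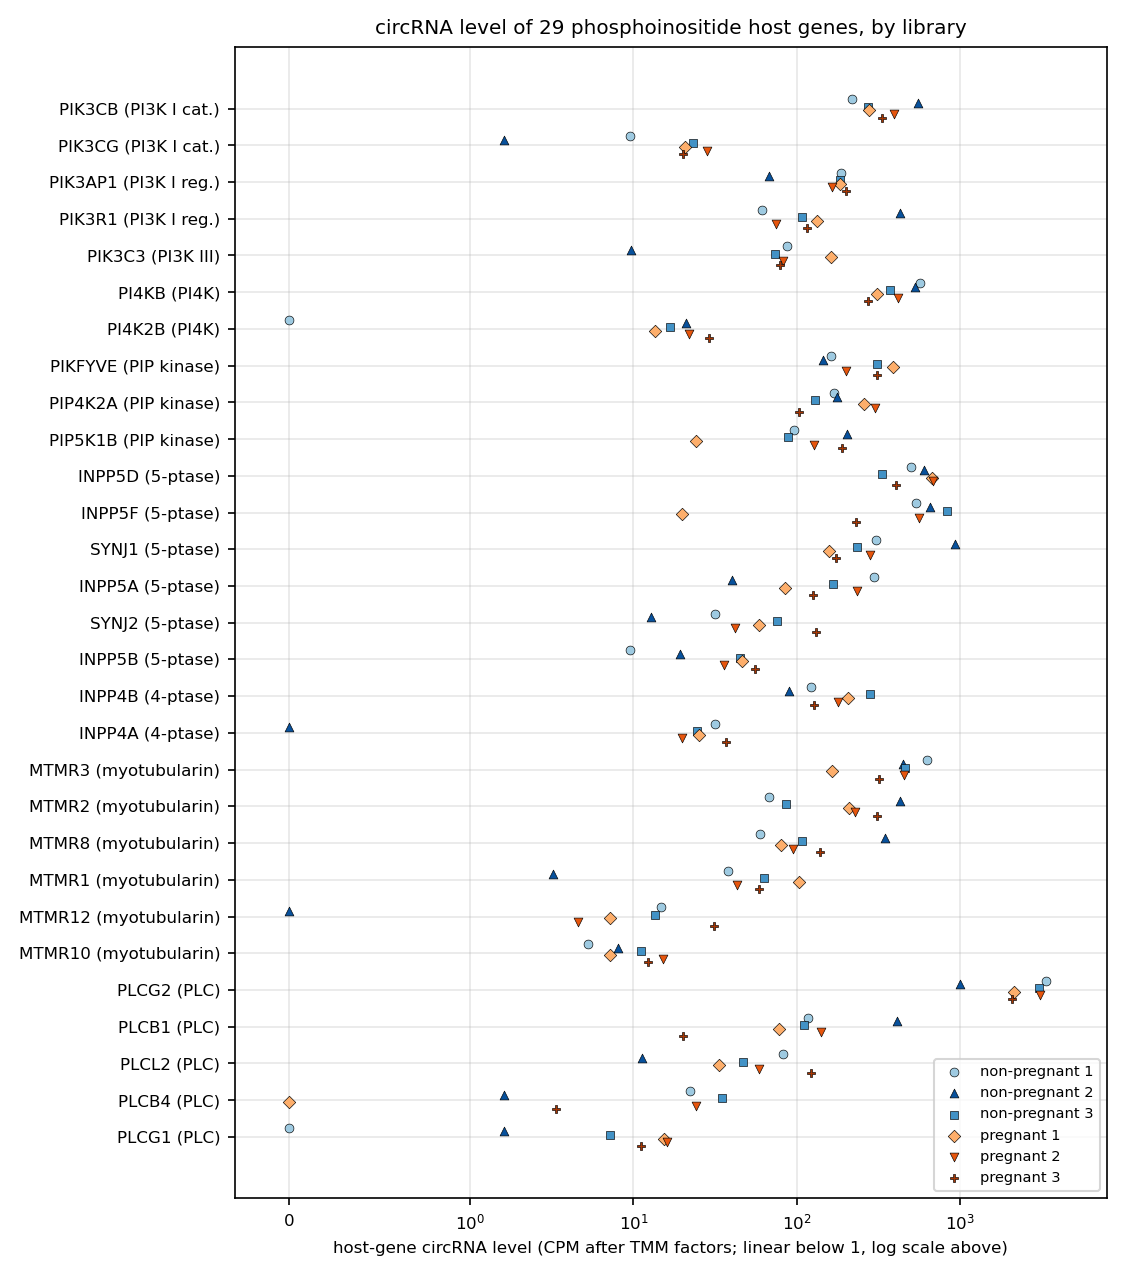
Level of the 29 phosphoinositide host genes that passed the filter on low counts (CPM after TMM factors, linear below 1 and log scale above), with 1 point per library and blue for non-pregnant and orange for pregnant animals. PLCG2 lies highest, non-pregnant replicate 2 is often the lowest or the highest point of a gene, and PLCG1 at the bottom is the gene whose groups do not overlap.

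Among the phosphatases that act at the inositol 5-position by family name, INPP5D and INPP5F were read most. INPP5D, known as SHIP1, restrains PI3K signalling in blood cells, and it was read 477, 375 and 421 times in the non-pregnant and 752, 902 and 363 times in the pregnant libraries. The groups overlapped and the log2 fold change was 0.30 (SE 0.50). Its main circle, circRNA2275, was read 267, 34 and 174 times against 410, 547 and 190 times, with a log2 fold change of 1.00 (SE 0.78) that was 0.68 without non-pregnant replicate 2. Other circles of INPP5D had values of either sign. For circRNA15374, which shares its end with circRNA2275, the counts were 20, 6 and 20 against 169, 76 and 11, a log2 fold change of 2.10 (SE 1.05). For circRNA15372, which lies upstream, they were 80, 175 and 45 against 8, 94 and 14, a log2 fold change of -2.55 (SE 1.31) that was -0.89 without non-pregnant replicate 2. The groups overlapped for both circles.

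INPP5F, a Sac-domain phosphatase also called SAC2 that removes the 4-phosphate, was read almost wholly from an intron. Its ciRNA1835, on NC_037567.1 from 39291346 to 39292601, held 95.6% of the host gene's reads. It was read 493, 405 and 1026 times in the non-pregnant libraries and 0, 702 and 179 times in the pregnant libraries. The 0 lies in pregnant replicate 1, where the host gene as a whole had 22 reads, against at least 206 in every other library. The host gene was at 677 ± 145 CPM without and 269.9 ± 272 CPM with pregnancy (SD, n = 3 each), with a log2 fold change of -1.33 (SE 0.75, unadjusted p = 0.0949 by edgeR). By edgeR the log2 fold change was -0.75 (adjusted p = 1.00) without pregnant replicate 1 and -2.45 (adjusted p = 0.999) without pregnant replicate 2. With this circle counted, intronic circRNAs held 10.9% of the phosphoinositide reads, against 7.39% over all circRNAs with a host gene. The higher share rests on ciRNA1835, which gave 2805 of the 4844 intronic reads.

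SYNJ1, which strips phosphates from membranes during endocytosis, had the smallest p of the 29 host genes tested. It was read 288, 579 and 294 times in the non-pregnant and 176, 369 and 156 times in the pregnant libraries, with a log2 fold change of -1.26 (SE 0.62, unadjusted p = 0.0587 and adjusted p = 0.895 by edgeR). Non-pregnant replicate 2 decided its size, since the log2 fold change was -0.39 without it (adjusted p = 0.996 by edgeR), while it was -1.52 without non-pregnant replicate 1 and -1.60 without non-pregnant replicate 3. Of the 579 reads in non-pregnant replicate 2, circRNA4179 held 308 and its neighbour circRNA4183 held 219. Over the libraries circRNA4179, 3 exons, had 25, 308 and 47 reads against 28, 46 and 11. Its log2 fold change was -3.52 (SE 1.43, unadjusted p = 0.0361 by edgeR), and -0.39 without non-pregnant replicate 2. The neighbour circRNA4183 was read 1, 219 and 8 times against 0, 8 and 18 times. In contrast circRNA4185, the circle with the most reads of SYNJ1, had 124, 32 and 91 reads against 106, 150 and 110, and a log2 fold change of 0.23 (SE 0.82), or 0.13 without non-pregnant replicate 2. SYNJ2, its paralog, was read 30, 8 and 95 times against 65, 55 and 117 times, with a log2 fold change of 0.93 (SE 0.97), or 0.52 without that library.

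Active myotubularins remove the 3-phosphate from endosomal lipids. MTMR3 was read 592, 279 and 580 times in the non-pregnant and 184, 596 and 287 times in the pregnant libraries, with a log2 fold change of -0.71 (SE 0.55). Its circRNA9507, 4 exons, held 51.1% of the reads, with 232, 224 and 280 reads against 98, 279 and 173. In CPM this was 218, 515 and 200 in the non-pregnant and 80.0, 196 and 170 in the pregnant libraries, so the groups did not overlap, by the narrow gap between non-pregnant replicate 3 and pregnant replicate 2 (log2 fold change -1.06, SE 0.78). Without non-pregnant replicate 2 it was -0.51. MTMR1 was read 36, 2 and 79 times against 115, 57 and 53 times, a log2 fold change of 0.97 (SE 1.04) that was 0.45 without that library. From MTMR8, circRNA10261 was read 20, 208 and 60 times against 25, 36 and 39 times, and its log2 fold change of -2.67 (SE 1.29) was -0.18 without non-pregnant replicate 2.

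MTMR2, an active myotubularin, gave the circle with the smallest p among those with the higher level in pregnant blood. Its circRNA9444, 2 exons on NC_037560.1 from 70501556 to 70502633 on the minus strand, was read 40, 10 and 53 times in the non-pregnant and 139, 172 and 174 times in the pregnant libraries. Every pregnant library had more than every non-pregnant library, also in CPM, at 32.8 ± 8.51 CPM against 135 ± 31.2 CPM (SD, n = 3 each). The log2 fold change was 2.03 (SE 0.86, unadjusted p = 0.0414 and adjusted p = 0.983 by edgeR), and it lay between 1.81 and 2.17 under every alternative run, with an unadjusted edgeR p from 0.0114 without non-pregnant replicate 2 to 0.174 with no filter. DESeq2 gave an adjusted p of 0.117. For the host gene as a whole the counts were 64, 268 and 108 against 233, 301 and 277, a log2 fold change of 0.36 (SE 0.72). Non-pregnant replicate 2 was the exception here, with 268 reads of which 165 came from an intronic circle, ciRNA2385, that had 22 reads in pregnant replicate 3 and 0 in the other 4 libraries. Without that library the log2 fold change of MTMR2 was 1.71 (SE 0.43, unadjusted p = 0.00332, adjusted p = 0.949 by edgeR). A further intronic circle of MTMR2, ciRNA4943, was read 17, 6 and 11 times in the pregnant libraries and 0 times in the non-pregnant ones. In pooled reads it was at least 8.97-fold higher against a floor of 3 counts over the group, a bound that leaves out the spread between animals.

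Of the kinases, PIK3CB, the beta catalytic subunit of class I PI3K and a main form in platelets, was read 206, 344 and 346 times in the non-pregnant and 309, 523 and 298 times in the pregnant libraries. The log2 fold change was -0.05 (SE 0.56), and 0.46 without non-pregnant replicate 2. PI4KB, which makes phosphatidylinositol 4-phosphate at the Golgi, was read 543, 330 and 469 times against 346, 551 and 246 times (log2 fold change -0.55, SE 0.52). Its reads came from 4 circRNAs, and circRNA1813, 2 exons, held 97.6% of them, with 515, 330 and 454 reads against 341, 551 and 235 (-0.80, and -0.45 without non-pregnant replicate 2). PIKFYVE, the endosomal kinase that makes the 3,5-bisphosphate, was read 154, 91 and 394 times against 433, 266 and 279 times (0.54, SE 0.60, and 0.35 without non-pregnant replicate 2). PIP4K2A, which acts on phosphatidylinositol 5-phosphate, was read 161, 111 and 163 times against 286, 396 and 92 times (0.47, SE 0.65). PIK3C3 was read 83, 6 and 93 times against 181, 109 and 71 times (0.92, SE 0.92, and 0.44 without non-pregnant replicate 2). The groups overlapped in CPM for all 5 of these kinases.

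PIP5K1B, which makes phosphatidylinositol 4,5-bisphosphate, gave circles that were read in 1 group only, in both directions. Its circRNA13832, 3 exons on NC_037547.1 from 107872165 to 107875753, was read 28, 109 and 28 times in the non-pregnant libraries and 0 times in all 3 pregnant ones. It had the smallest p of the 72 phosphoinositide circRNAs tested (unadjusted p = 0.00178, adjusted p = 0.983 by edgeR, adjusted p = 0.00112 by DESeq2). Without non-pregnant replicate 2 the unadjusted p was 0.0131 by edgeR. It passed the filter on low counts only through the non-pregnant libraries, so its p-values are no independent support for a difference. In pooled reads, against a floor of 3 counts over the group, it was at least 69.5-fold lower in the pregnant libraries. Without non-pregnant replicate 2 it was at least 27.8-fold lower. These bounds leave out the spread between animals. A circle whose start lies 1 bp away, circRNA39468, was read 14 and 2 times in pregnant replicates 2 and 3, and the summed pair had a log2 fold change of -4.63 (SE 1.56, unadjusted p = 0.0138 by edgeR). Without non-pregnant replicate 2 the pair was at -2.50 (SE 1.58, unadjusted p = 0.151 by edgeR), an alternative chosen after the data were seen. Conversely, circRNA32342, upstream in the same gene, was read 8, 10 and 36 times in the pregnant libraries and 0 times in the non-pregnant ones. In pooled reads it was at least 14.2-fold higher against the same floor, again without the spread between animals. It did not pass the filter and was not tested. The host gene as a whole had 91, 127 and 112 reads against 27, 169 and 171, and a log2 fold change of -0.18 (SE 0.83) that turned to 0.31 without non-pregnant replicate 2.

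No phosphoinositide host gene passed the test between pregnant and non-pregnant blood. By edgeR's quasi-likelihood test with Benjamini-Hochberg adjustment over all 4137 host genes tested, 0 of the 29 that passed the filter on low counts were called (adjusted p below 0.05, and a log2 fold change of 1 or more in either direction), and 0% of all host genes were. At an unadjusted p below 0.05 there were 0 of 29, against 5.54% of all host genes, 0.991% with pregnant higher and 4.54% with pregnant lower. DESeq2 called 0 at an adjusted p (0.0242% of all) and gave 2 below 0.05 before adjustment (8.22% of all), SYNJ1 with an adjusted p of 0.526 and PLCB1 with an adjusted p of 0.5701. Leaving out non-pregnant replicate 1 or 3 gave 1 such gene at an unadjusted p (SYNJ1), against 9.95% and 11.2% of all host genes then tested. Leaving out non-pregnant replicate 2 gave MTMR2 (5.02% of all), and leaving out pregnant replicate 2 gave INPP5F (4.55% of all). The log2 fold change was above 0 for 17 and below 0 for 12 of the 29, with a median of 0.32 against 0.01 over all host genes tested. With RLE factors these medians were 0.00 and -0.13, so the median of all host genes shifted by more than 0.1 with the scaling. The other 22 host genes did not pass the filter. They held 468 reads, or 1.05% of the total, and at most 61 each, and 8 of them had under 10 reads (PIK3R6, MTMR6, PIK3C2B, MTMR11, PIP4K2C, PLCB3, INPP5K and PIK3R5).

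**Figure D2:**
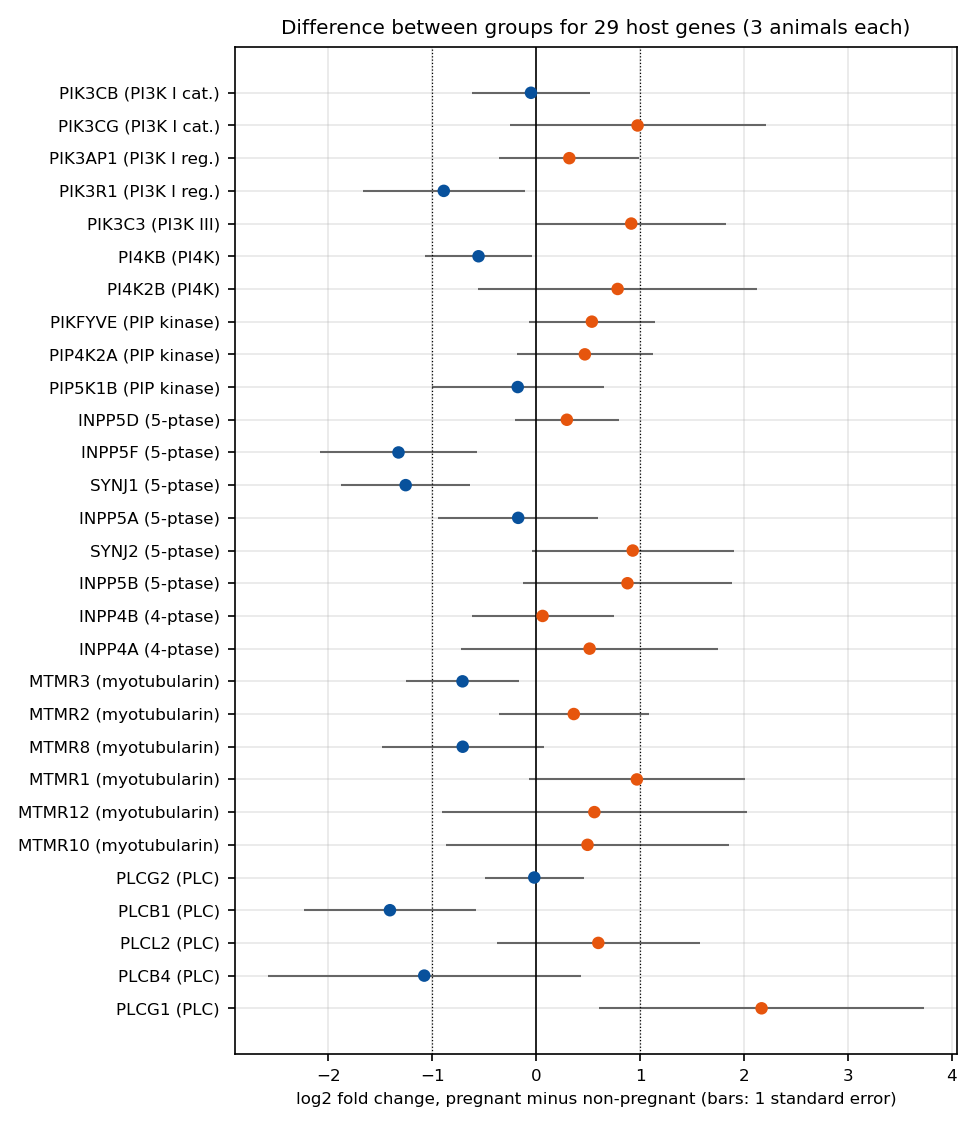
Log2 fold change, pregnant minus non-pregnant, of the 29 host genes tested, with bars of 1 standard error and dotted lines at an absolute log2 fold change of 1. Of the 29, 17 lie above 0 and 12 below, from -1.41 for PLCB1 to 2.17 for PLCG1, and none passed the test.

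Of the 511 circRNAs, 72 passed the filter and 439 did not. The 439 held 15.8% of the reads and at most 261 reads each. By edgeR 0 of the 72 were called at an adjusted p (0% of all 8261 tested), and 3 had an unadjusted p under 0.05, against 3.9% of all. These were circRNA9444 of MTMR2 with pregnant higher (1.43% of all), and circRNA13832 of PIP5K1B and circRNA4179 of SYNJ1 with pregnant lower (2.47% of all). DESeq2 called 1 at an adjusted p, circRNA13832, against 0.472% of all, and gave 4 at an unadjusted p below 0.05, against 7.01% of all. Groups did not overlap in CPM for 9 of the 72, 6 with pregnant higher and 3 with pregnant lower, against 12% of all tested, 8.16% and 3.87%. With pregnant higher they were circRNA9444 and ciRNA685 of MTMR2, circRNA4717 of PIK3CB, circRNA3866 of PIK3R1, circRNA2239 of INPP5B and circRNA4882 of PLCL2, and with pregnant lower circRNA13832 of PIP5K1B, circRNA9507 of MTMR3 and circRNA4182 of SYNJ1. Of these circRNA4717, the main circle of PIK3CB, was read 147, 11 and 144 times in the non-pregnant and 198, 317 and 206 times in the pregnant libraries, with a log2 fold change of 1.13 (SE 0.88), or 0.68 without non-pregnant replicate 2. The shares for these host genes thus lay near those of the whole table. At least circRNA13832 and circRNA4882 had passed the filter only through the group where they were high. The median log2 fold change was 0.38 against 0.05 over all circRNAs tested.

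**Figure D3:**
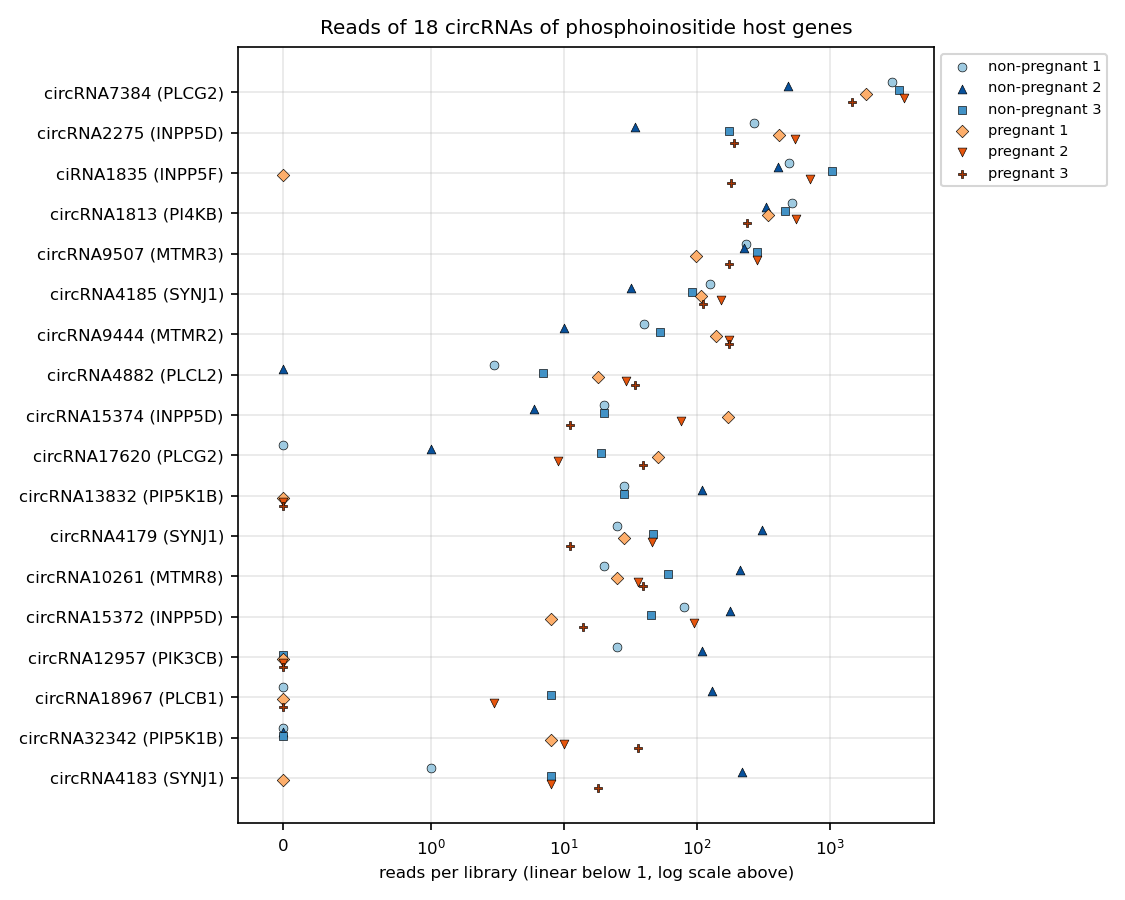
Reads per library of 18 phosphoinositide circRNAs (linear below 1 and log scale above), blue for non-pregnant and orange for pregnant animals. For circRNA9444 the 3 pregnant libraries lie at 139 to 174 reads and the non-pregnant at 10 to 53, while for circRNA4179, circRNA10261, circRNA18967 and circRNA4183 non-pregnant replicate 2 lies alone at the right.

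The circle that led a host gene was often another one in non-pregnant replicate 2. This was looked at in the 16 phosphoinositide host genes with at least 20 reads in every library and at least 2 circRNAs, a choice made after the values were seen, and it is a description with no test. The circle with the most reads over all libraries also led in 12, 6 and 13 of the 16 host genes in non-pregnant replicates 1, 2 and 3, and in 15, 14 and 14 in pregnant replicates 1, 2 and 3. Over the 1605 host genes of the table that met the same limits, the shares were 76.9%, 73.5% and 82.2% in the non-pregnant and 76.9%, 83.4% and 78.6% in the pregnant libraries, against 37.5% for the 16 in non-pregnant replicate 2.

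In PIK3CB, circRNA4717 held 41.6% to 71.4% of the reads in 5 libraries and 3.20% in non-pregnant replicate 2, where circRNA16776, 7 exons, held 64.2%. That circle had 221 reads there, 1 in non-pregnant replicate 3 and 0 in the pregnant libraries. In MTMR2, circRNA9444 held 49.1% to 62.8% in 5 libraries and 3.73% in non-pregnant replicate 2. In INPP5D, circRNA2275 held 41.3% to 60.6% in 5 libraries and 9.07% in that one, where circRNA15372 led with 46.7%. In SYNJ1, circRNA4185 held 5.53% there and circRNA4179 led with 53.2%. PIKFYVE (circRNA17874, 62.6%), PIP4K2A (ciRNA2679, 77.5%) and PIP5K1B (circRNA13832, 85.8%) had another leader there as well. For these last 2 genes that was not particular to it, since ciRNA2679 also led PIP4K2A in non-pregnant replicate 3 with 23.3%, and circRNA13832 also led PIP5K1B in non-pregnant replicate 1 with 30.8%. A further circle, circRNA12024, led PIP4K2A in non-pregnant replicate 1 and pregnant replicate 2. By contrast circRNA7384 held 77.1% to 91.7% of PLCG2 and circRNA1813 held 94.8% to 100% of PI4KB in the 6 libraries.

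**Figure D4:**
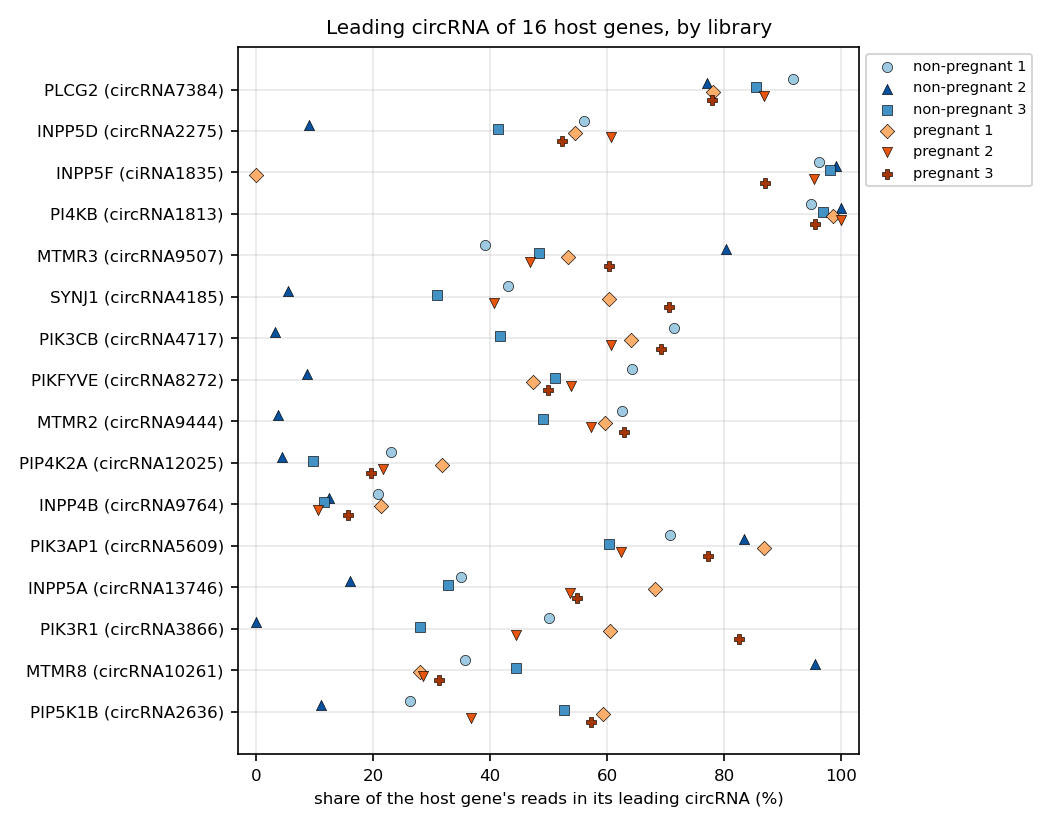
Share of a host gene's reads (%) held by the circRNA with the most reads over all libraries, for 16 host genes, with 1 point per library. Non-pregnant replicate 2 (dark blue triangles) lies at 3.20% for PIK3CB, 3.73% for MTMR2 and 9.07% for INPP5D, where the other 5 libraries lie at 41.3% or more.

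Some circles were listed as 2 circRNAs whose ends lie within 1 bp of each other. There were 34 such pairs among the phosphoinositide circRNAs, which took in 68 of the 511 (13.3%, against 15.0% over all circRNAs with a host gene). In 33 pairs the starts lay 1 bp apart with a common end, and in all 34 the exon number was the same. No library held reads of both circles of a pair in 130 cases where it held either, while over all pairs of the table both were read in 1.33% of cases. Over the 33 pairs with starts 1 bp apart the higher start was the form read in 25% of the pairs with reads in pregnant replicate 2 and in 50% in pregnant replicate 3 and non-pregnant replicate 2, with the other libraries in between. In PIK3R1, the regulatory subunit p85 alpha, circRNA19287 was read 261 times in non-pregnant replicate 2 and in no other library, while circRNA3867, whose start lies 1 bp lower, was read 1 and 78 times in non-pregnant replicates 1 and 3 and 39, 16 and 0 times in the pregnant libraries. In PIKFYVE, circRNA13434 was read 33 times in non-pregnant replicate 1 only, and circRNA17881 0, 7 and 89 times in the non-pregnant and 130, 47 and 66 times in the pregnant libraries.

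Summing a pair changed what a group comparison showed. In PIK3CB, circRNA12957 was read 25, 109 and 0 times in the non-pregnant libraries and 0 times in the pregnant ones, and it alone would appear as read in non-pregnant blood only. Its partner circRNA23332 was read 0, 0 and 68 times against 41, 44 and 11 times, and the summed pair was read in all 6 libraries, with a log2 fold change of -2.14 (SE 1.10, unadjusted p = 0.0810 by edgeR) that was -0.54 (SE 0.79) without non-pregnant replicate 2. The summed pair of PIKFYVE had a log2 fold change of 0.86 (SE 0.88), or 0.49 without that library. The 2 pairs of PIK3R1 lay at -3.98 (SE 1.95) for circRNA19287 with circRNA3867, and at 1.57 (SE 0.85) for circRNA3866 with circRNA19286. Without non-pregnant replicate 2 they lay at -1.02 (SE 1.69) and 1.17 (SE 0.67), and no summed pair named here passed the adjusted test.

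**Figure D5:**
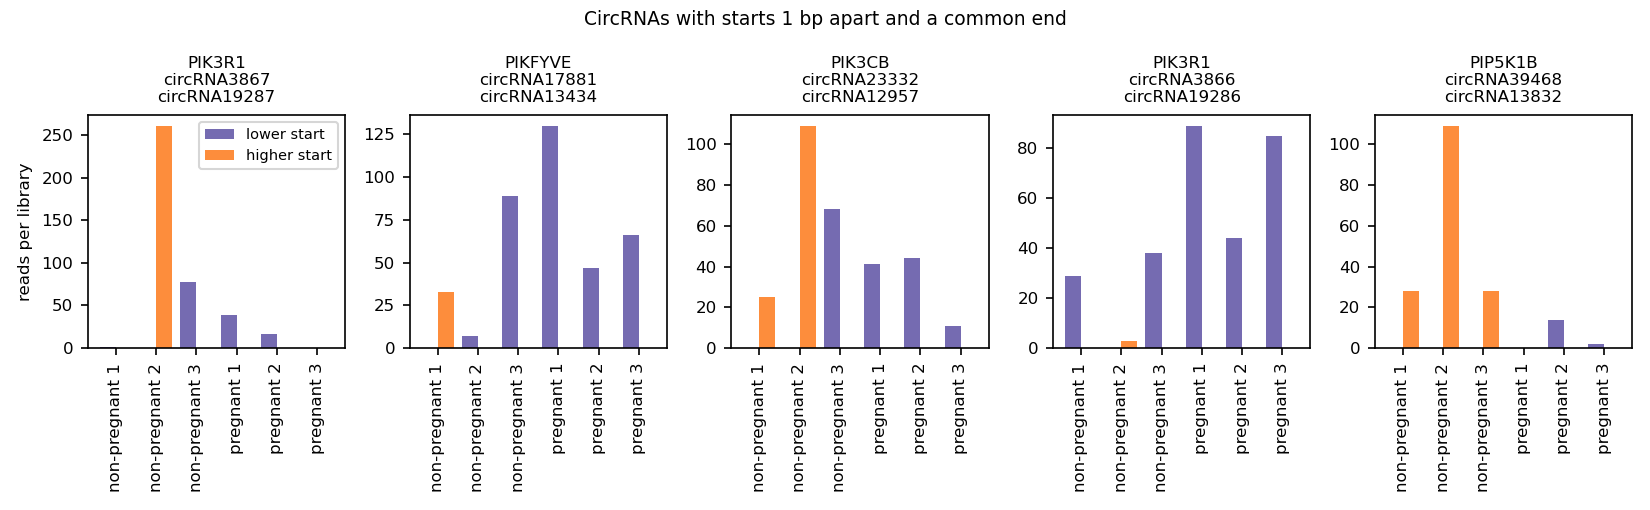
Reads per library of 5 pairs of circRNAs whose starts lie 1 bp apart and whose end is the same, with the lower start in purple and the higher start in orange. No library has both bars of a pair, and in these 5 the higher start is read in non-pregnant animals only.

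Other genes of the pathway were compared from 4 lists, and no gene of them was called. Of 25 further phosphoinositide enzymes 12 were tested, 5 with a log2 fold change above 0 and 7 below, and 0 were called, with the phosphatases SACM1L at -0.50 (SE 0.44) and FIG4 at 0.04 (SE 0.57). Of 18 inositol phosphate enzymes and IP3 receptors 6 were tested, 3 in each direction and 0 called, with the calcium channel ITPR1 at -0.65 (SE 0.44) and ITPR2 at -0.16 (SE 0.46). Of 26 PI3K effectors 17 were tested, 9 above 0 and 8 below and 0 called, with PLEKHA2 at -0.49 (SE 0.45) and PDPK1, which activates AKT, at -0.02 (SE 0.60). Of 18 diacylglycerol kinases and protein kinase C genes 9 were tested, 5 above 0 and 4 below. In this list DGKH, which turns diacylglycerol into phosphatidic acid, was at 679, 713 and 711 CPM in the non-pregnant and 229, 365 and 278 CPM in the pregnant libraries. The groups did not overlap and the log2 fold change was -1.27 (SE 0.50, unadjusted p = 0.0203), but the adjusted p over all host genes was 0.844 by edgeR. DGKH was the 1 gene of its list with an unadjusted p below 0.05 by edgeR. Among the tested genes of the 4 lists, groups also did not overlap for PLEKHA2 with pregnant lower, and for CDS2 and DGKA with pregnant higher. Over all host genes tested this share was 11.5%.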

How the data were processed

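CircRNAs were measured in jugular blood of 3 non-pregnant and 3 pregnant buffaloes, 1 library per animal. The authors deposited raw counts of reads for every circRNA in each library. They also deposited a signal, SRPBM, that scales spliced reads by mapped reads and served only as an alternative library size. The methods of the paper name Cutadapt, Bowtie2, Tophat2, Tophat-fusion, CIRI and CIRCExplorer with ASM312139v1. Different tools (HISAT2, StringTie, HOMER, ChIPseeker, edgeR and fastp) and the build GRCh38.p10 stand in the submitters' processing notes. Which of these made the deposited counts is not given in the sources used. Coordinates are as deposited. No sequence of that build was used here.

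Counts were summed per host gene and tested over all features with edgeR 4.0.16 (TMM factors, the default filterByExpr filter, quasi-likelihood test, Benjamini-Hochberg adjustment) in R 4.3.3. The SE is the log2 fold change divided by the root of F. The study's t-test was replaced because the values are counts. Folds against a group at 0 used pooled CPM and a floor of 3 counts over the group, and they leave out the spread between animals. Libraries summed to 815851 to 1298753 counts. PCR reads without molecular identifiers are not independent molecules. Alternatives were DESeq2 1.42.0, RLE factors, SRPBM library sizes, no filter, the replicate block, leaving out each library, summing circRNAs within 1 bp, and detection limits of 5 reads or 2 libraries. The steps were tested on simulated data.

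The members and lists were chosen with earlier results of these data known. Named were the 10 host genes with the highest mean CPM, up to 4 per direction with the smallest p, the top circRNA of the 6 highest host genes, in each direction the 4 tested circRNAs of smallest p, 6 circRNAs seen earlier in a supplementary table, up to 4 pairs with the most reads and up to 3 genes per other list. Others named, such as circRNA16776, ciRNA2385, ciRNA4943, circRNA17874 and ciRNA2679, were chosen after their values were seen. A few values of listed genes are not reported here.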

Additional observations from a re-analysis of the deposited data

How the results depend on the processing

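Of 321 alternative log2 fold changes of the named host genes and circRNAs, 304 kept their direction and their side of the threshold. As 0 were called as reported, keeping that side was nearly fixed in advance, and the count says little of size. Without non-pregnant replicate 2, SYNJ1 went from -1.26 to -0.39 and PLCB1 from -1.41 to -0.50. Host genes at an unadjusted p under 0.05 numbered 0 as reported, 2 with DESeq2 (8.22% of all host genes), 2 of 51 with no filter (6.29%), 1 with the replicate block (INPP5F, 2.39%) and 0 to 1 leaving out each library (3.20% to 11.2%), and called host genes stayed at 0 in every alternative run. Called circRNAs numbered 0, but 1 with DESeq2 and 5 of 511 with no filter, where 600 of all 57308 circRNAs had an adjusted p under 0.05. At an unadjusted p under 0.05 they numbered 3, against 1 with SRPBM library sizes (1.94% of all), 20 of 511 with no filter (3.70%) and 3 to 7 leaving out each library (3.72% to 9.14%). Summing circRNAs within 1 bp without non-pregnant replicate 2, chosen after the data were seen, gave 4 of 118 (4.66%). For circRNA13832 the call was reached with DESeq2 (log2 fold change -9.69) and with no filter (-9.89, adjusted p = 0.00210), where a fold against a group at 0 depends on the prior count. PLCG2 turned from -0.02 to 0.085 with SRPBM library sizes, 0.11 with the replicate block, and -0.38 to 0.28 leaving out each library (0.28, 0.17, 0.091 and 0.088 without non-pregnant 1, non-pregnant 3, pregnant 1 and pregnant 3). PIK3CB turned from -0.05 to 0.36 with SRPBM library sizes, 0.052 with the replicate block, and -0.30 to 0.46 leaving out each library (0.46 and 0.076 without non-pregnant 2 and pregnant 1). MTMR2 turned from 0.36 to -0.13 with DESeq2, -0.13 with RLE factors, and -0.067 to 1.71 leaving out each library (-0.067 and -0.010 without non-pregnant 1 and non-pregnant 3). For circRNA7384 the value turned from -0.19 to 0.063 without non-pregnant 1, in a range of -0.50 to 0.063 leaving out each library. The cause of these turns was not tested. The SRPBM library sizes moved the median of all host genes to 0.16 and of the 29 to 0.36. The number of phosphoinositide circRNAs fell from 511 to 237 when reads in at least 2 libraries were required, and 41 host genes were left. The replicate numbers were not taken as pairs in the reported test. The deviations of same-numbered libraries correlated at -0.15 to -0.02 over host genes and -0.11 to -0.03 over circRNAs. With 3 animals per group these values cannot show whether the samples were paired. With the block, 2 circRNAs had an unadjusted p under 0.05 and 0 were called. Depth limits the 22 host genes and 439 circRNAs that did not pass the filter.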
